A study of Homo sapiens with 9 samples.

Results

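The transcripts of human chromosome 15 were described as a region, in the pancreatic cancer cell line AsPC-1 with and without knockdown of STOML2. Of the 21448 rows of the expression table, 638 carried an identifier that begins with the chromosome code TC15, and each row stands for the transcripts of 1 locus. The rows were divided at 6.61, the median of the row means of the whole table on the log2 scale, and the rows above and below were thus chosen by their mean signal over the 9 arrays: 362 lay above and 276 at or under. One gene symbol was given for 520 of the rows, and all 520 of these genes lie on chromosome 15 in the RefSeq annotation of GRCh38.p14, with no gene on more than 1 row. The order along the chromosome was taken from that annotation. It places 324 of the rows above the median and 196 of the rows under it. The other 118 rows (38 above, 80 at or under) had no single symbol and were kept out of the ordered profile.

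AsPC-1 is an established line grown from the ascites of a patient with pancreatic ductal adenocarcinoma. STOML2, also called SLP-2, is a scaffold protein of the inner mitochondrial membrane. Every group carried the neomycin-resistance plasmid pBAsi-hU6 NEO. The control group received it blank, the sh1 group with hairpin shRNA-1 against STOML2 and the sh2 group with hairpin shRNA-2. Each culture was kept under Geneticin for 3 weeks and was then grown from a single colony, so that each group is 1 clone, and a difference between groups cannot be told apart from a difference between clones. Each group had 3 arrays (9 in all), and nothing in the labels says that the 3 came from separate cultures. The p-values therefore measure the spread between these arrays, which may be technical.

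Chromosome 15 is acrocentric: its short arm holds repeated ribosomal RNA genes, and nearly all of its other genes lie on the long arm. Near the centromere the long arm carries the imprinted Prader-Willi and Angelman syndrome region, in which UBE3A and several neighbours are expressed according to parent of origin in some tissues, and it is rich in duplicated segments, so that some genes there have near-identical copies. Farther along lie genes of cell division and DNA repair (KNL1, BUB1B, PRC1, BLM), the mitochondrial creatine kinase pair CKMT1B and CKMT1A, the matrix and actin genes THBS1 and TPM1, and IGF1R toward the end.

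The upstream sequences of a few genes with the largest differences are shown to identify these loci and because the creatine kinase copies share theirs. They are the 250 bases before the first start of the gene in the RefSeq promoter table (GRCh38.p14), written 5′ to 3′. SPINT1 and NEO1 had the largest rises in sh1 among named genes other than the creatine kinases, and THBS1 and TPM1 the largest falls in sh2. Capitals mark the CCAAT box, searched as CCAAT, on either strand. They also mark the TATA box, searched as TATAAA, and the GC box, searched as GGGCGG, likewise.
SPINT1 (chr15:40843798-40844047, plus strand): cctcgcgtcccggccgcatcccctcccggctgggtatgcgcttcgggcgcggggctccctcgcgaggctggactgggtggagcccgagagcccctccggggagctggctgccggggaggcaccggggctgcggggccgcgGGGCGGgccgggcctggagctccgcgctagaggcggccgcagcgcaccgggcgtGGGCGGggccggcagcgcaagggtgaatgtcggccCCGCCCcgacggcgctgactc
NEO1 (chr15:73051652-73051901, plus strand): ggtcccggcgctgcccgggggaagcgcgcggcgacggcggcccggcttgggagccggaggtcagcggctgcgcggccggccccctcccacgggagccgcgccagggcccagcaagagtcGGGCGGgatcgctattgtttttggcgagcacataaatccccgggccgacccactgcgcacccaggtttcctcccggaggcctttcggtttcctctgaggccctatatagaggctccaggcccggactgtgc
THBS1 (chr15:39580829-39581078, plus strand): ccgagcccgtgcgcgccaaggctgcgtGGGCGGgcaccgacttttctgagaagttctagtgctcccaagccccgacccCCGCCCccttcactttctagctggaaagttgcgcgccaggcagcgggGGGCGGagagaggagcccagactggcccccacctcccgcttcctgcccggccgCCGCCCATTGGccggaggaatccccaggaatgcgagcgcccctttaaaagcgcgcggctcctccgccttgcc
TPM1 (chr15:63048239-63048488, plus strand): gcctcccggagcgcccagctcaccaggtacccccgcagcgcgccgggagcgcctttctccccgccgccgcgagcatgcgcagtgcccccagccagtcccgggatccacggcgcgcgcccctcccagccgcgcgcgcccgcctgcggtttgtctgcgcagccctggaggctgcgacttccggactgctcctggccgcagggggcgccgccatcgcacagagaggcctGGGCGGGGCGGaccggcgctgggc
For the creatine kinases the same run of 225 bases stands upstream of a start of both genes.
CKMT1B (chr15:43593609-43593833) and CKMT1A (chr15:43693441-43693665), both on the plus strand: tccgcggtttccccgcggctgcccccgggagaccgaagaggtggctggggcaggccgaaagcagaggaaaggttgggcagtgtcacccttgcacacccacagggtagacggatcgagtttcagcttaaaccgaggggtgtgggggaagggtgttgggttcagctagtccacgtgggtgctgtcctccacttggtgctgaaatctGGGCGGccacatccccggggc
The GC content of these stretches was 80.4% for SPINT1, 71.6% for NEO1, 69.6% for THBS1 and 78.4% for TPM1, with 35, 28, 24 and 34 CpG dinucleotides. GC boxes numbered 3, 1, 4 and 2 in that order, overlapping matches included, and the THBS1 stretch held 1 CCAAT box that directly follows a GC box, both on the other strand. The promoter table held 469 of the 520 named genes. Among the 292 with signal above the median, 65.1% held a GC box, 38.0% a CCAAT box and 3.77% a TATA box. Among the 177 at or under the median these shares were 52.5%, 32.2% and 10.7%. Over all 27305 genes of the table they were 42.2%, 33.0% and 11.2%. That set was not limited to genes with a row on the array, so the shares do not compare chromosome 15 with other measured genes. The median GC content was 64.8% above the median signal, 61.6% under it and 57.6% over all genes. These matches describe letters in a window, and no binding was measured.

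The targeted gene differed as labelled: STOML2 read 13.70, 13.66 and 13.65 in the control arrays, 8.36, 8.42 and 8.18 in sh1, and 7.85, 7.99 and 7.35 in sh2. Array medians lay between 6.57 and 6.65, and arrays of the same group correlated at 0.994 to 0.996 over all rows against 0.982 to 0.988 for arrays of different groups. All 7 markers of pancreatic ductal epithelium were above the median signal in every array, with a summed level of 81.55 to 82.08 in control, 88.31 to 89.69 in sh1 and 83.91 to 84.33 in sh2. The members went opposite ways: in sh1 EPCAM rose by 4.94 and CDH1 from 8.71 to 10.74 while KRT19 fell by 1.69, and in sh2 EPCAM rose by 0.74 while KRT19 and CDH1 fell by 0.57 and 0.52. Of 12 markers of other cell types 9 had a row and 0 were above the median in every array. Their summed level was 45.27 to 45.84 in control, 41.52 to 42.91 in sh1 and 41.16 to 41.93 in sh2, and COL1A1, a collagen chain of fibroblasts, went from 9.84 in control to 6.65 in sh1 and 6.36 in sh2. The part of these markers in the results was not tested. A difference was taken between groups for the same row. The signals of different rows were set against each other only to divide and rank rows by level.

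In the sh1 clone the transcripts of chromosome 15 with signal above the median were mostly higher than in the control. The median log2 difference over these 362 rows was 0.75, a 1.68-fold rise, with quartiles of 0.38 and 1.07, while over all rows of the table above the median it was 0.04. The difference was above 0 for 330 of the 362 rows. At an adjusted p under 0.05 (limma, Benjamini-Hochberg over all rows), 248 rows rose and 4 fell, which is 68.5% and 1.1% of these rows. Over all rows above the median signal 15.7% rose and 14.3% fell. Of the 638 rows in all, 275 rose and 12 fell, against 9.76% and 9.0% of the whole table. The chromosome was taken up with this shift already known, so the counts describe its size and extent and are no test of it.

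Most rows with a low signal moved little. Among the 276 rows at or under the median, 27 rose and 8 fell in sh1, with a median difference of 0.11. These are 9.78% and 2.9%, against 3.8% and 3.7% of such rows over all chromosomes. The difference in sh1 was at or above 1 for 11 of the 276 rows and at or below -1 for 1. Divided further at the quartiles of the whole table, the median difference in sh1 was 0.00 over the 132 rows of lowest signal, 0.17 over the next 144, 0.69 over the next 166 and 0.77 over the 196 rows of highest signal. The 20 rows of highest signal had a smaller median, 0.44. The highest, ANXA2 (annexin A2, a membrane-binding protein), was at 17.62, 17.71 and 17.59 in control and 17.56, 17.60 and 17.56 in sh1, a difference of -0.07 with an adjusted p of 0.77. The mean over the 9 arrays includes the arrays in which a row is high. Of the 362 rows, 12 were at or under the median by the control arrays alone, SPINT1, NEO1 and CKMT1B among them, and 11 of these 12 rose in sh1. With the split made on the control arrays instead, 353 rows were above, 237 of them rose in sh1, and the medians were 0.73 in sh1 and 0.24 in sh2.

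**Figure D1:**
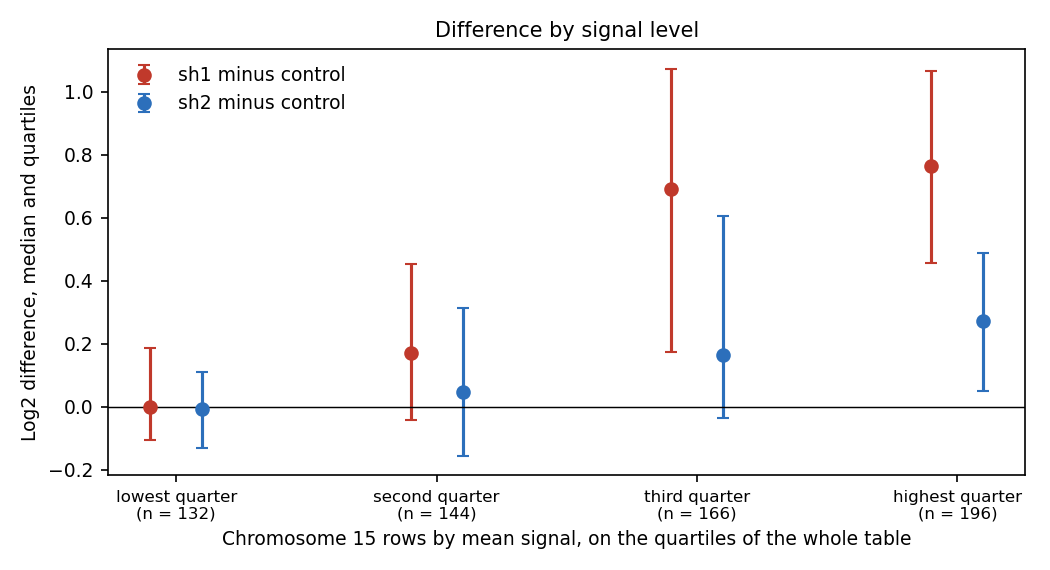
Log2 difference of chromosome 15 rows from control (vertical axis) in 4 groups of rows by mean signal, on the quartiles of the whole table (horizontal axis). Points are medians over rows and bars reach from the lower to the upper quartile of rows. In sh1 the median went from 0.00 in the rows of lowest signal to 0.77 in those of highest signal, and in sh2 from -0.01 to 0.27.

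The sh2 clone differed from the control in the same direction over the chromosome by a smaller amount. The median over the 362 rows was 0.25 (1.19-fold), with quartiles of 0.00 and 0.52, and 270 rows were above 0. Of these rows 96 rose and 20 fell (26.5% and 5.52%), while over all rows above the median signal 13.6% rose and 12.9% fell. Among the rows at or under the median 9 rose and 9 fell (3.26% each), with a background of 3.07% and 3.04%, and the median was 0.03. In all, 105 rose and 29 fell against 8.33% and 7.98% of the table. Both comparisons use the same 3 control arrays, so they are not independent of each other.

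The clones were also compared directly. Of the 362 rows above the median signal, 166 were lower in sh2 than in sh1 and 4 were higher, and over all chromosomes 8.64% of such rows were lower and 9.29% higher. The median difference was -0.48. Under the median signal 15 were lower and 1 was higher (5.43% and 0.362%), with a background of 2.5% and 2.17%. In all 181 were lower and 5 higher against 5.57% and 5.73%. The 5 higher rows were PAQR5, CORO2B, MEF2A, SLCO3A1 and LOXL1, of which LOXL1 (adjusted p = 0.0341) lost the call without any 1 of the 6 sh1 and sh2 arrays (adjusted p up to 0.103).

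Single arrays showed the same levels. The median over the 362 rows of an array's value minus the control mean was 0.00, -0.03 and 0.04 in the control arrays, 0.75, 0.72 and 0.77 in sh1, and 0.24, 0.25 and 0.26 in sh2. The groups did not overlap. Over the rows of all other chromosomes above the median signal these medians lay between -0.03 and 0.03 in every array. In single rows, all 3 sh1 arrays were above all 3 control arrays for 281 of the 362 rows, against 27.5% of all rows above the median signal, and all 3 sh2 arrays for 159, against 25.3%.

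Over the 24 chromosomes compared, chromosome 15 had the median farthest from 0 in sh1. The medians of the others, over rows above the median signal, lay between -0.30 (chromosome 5) and 0.30 (chromosome 12). In sh2 chromosome 15 lay inside the range of the others, which reached from -0.51 (chromosome 5) to 0.32 (chromosome 12). In sh2 minus sh1 the others lay between -0.24 and 0.23, with chromosome 15 outside at -0.48. No test was made of these ranks.

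**Figure D2:**
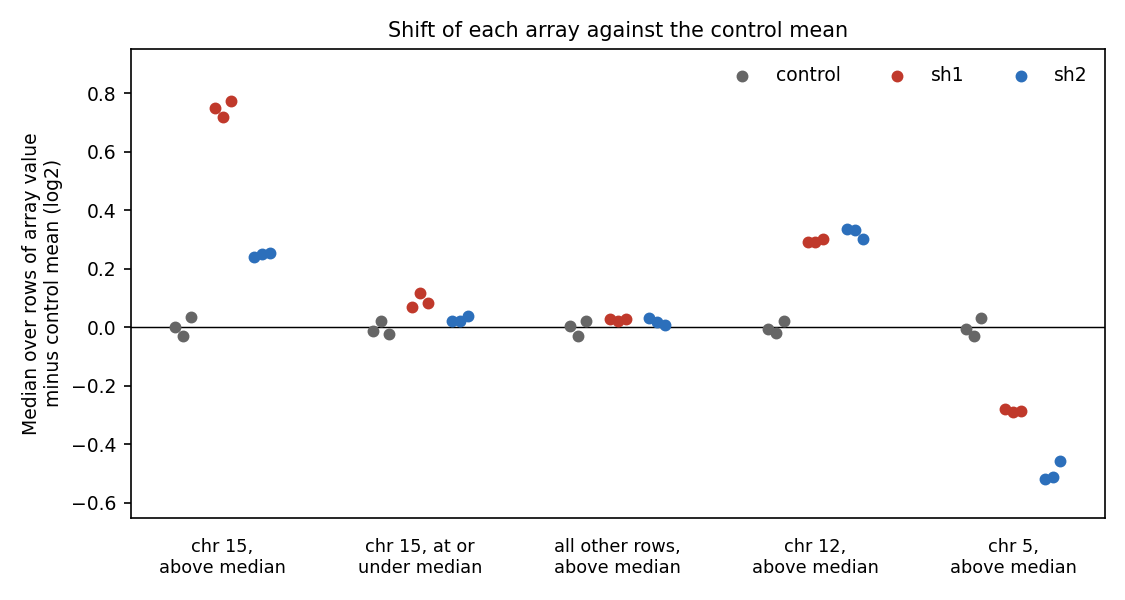
Median over rows of each array's value minus the mean of the control arrays (log2, vertical axis), 1 point per array, for chromosome 15 above and at or under the median signal, all other rows, and chromosomes 12 and 5. The sh1 arrays sit at 0.72 to 0.77 for chromosome 15 above the median and the sh2 arrays at 0.24 to 0.26, while the rows outside chromosome 15 sit between -0.03 and 0.03.

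The rise in sh1 extended over the whole placed length of the chromosome. A running median over 20 neighbouring rows above the median signal was above 0 at 305 of 305 positions. It was lowest, 0.41, over the stretch from RCN2 to BCL2A1 and highest, 1.23, from PRC1 to TARS3 near the end. Of the 324 placed rows 300 were above 0, and the longest unbroken run of such rows held 43, from LRRC49 to LINGO1. In sh2 the running median was above 0 at 303 of 305 positions but above 0.5 at 17. Its lowest value, -0.03, lay from CCNB2 to TRIP4 and its highest, 0.93, again from PRC1 to TARS3. The longest unbroken run of rows above 0 in sh2 held 15, from SMAD3 to UACA, and 244 of 324 rows were above 0. The running median of sh2 minus sh1 was below 0 at every position, between -0.72 (TUBGCP4 to AFG2B) and -0.30 (GNB5 to MINDY2).

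**Figure D3:**
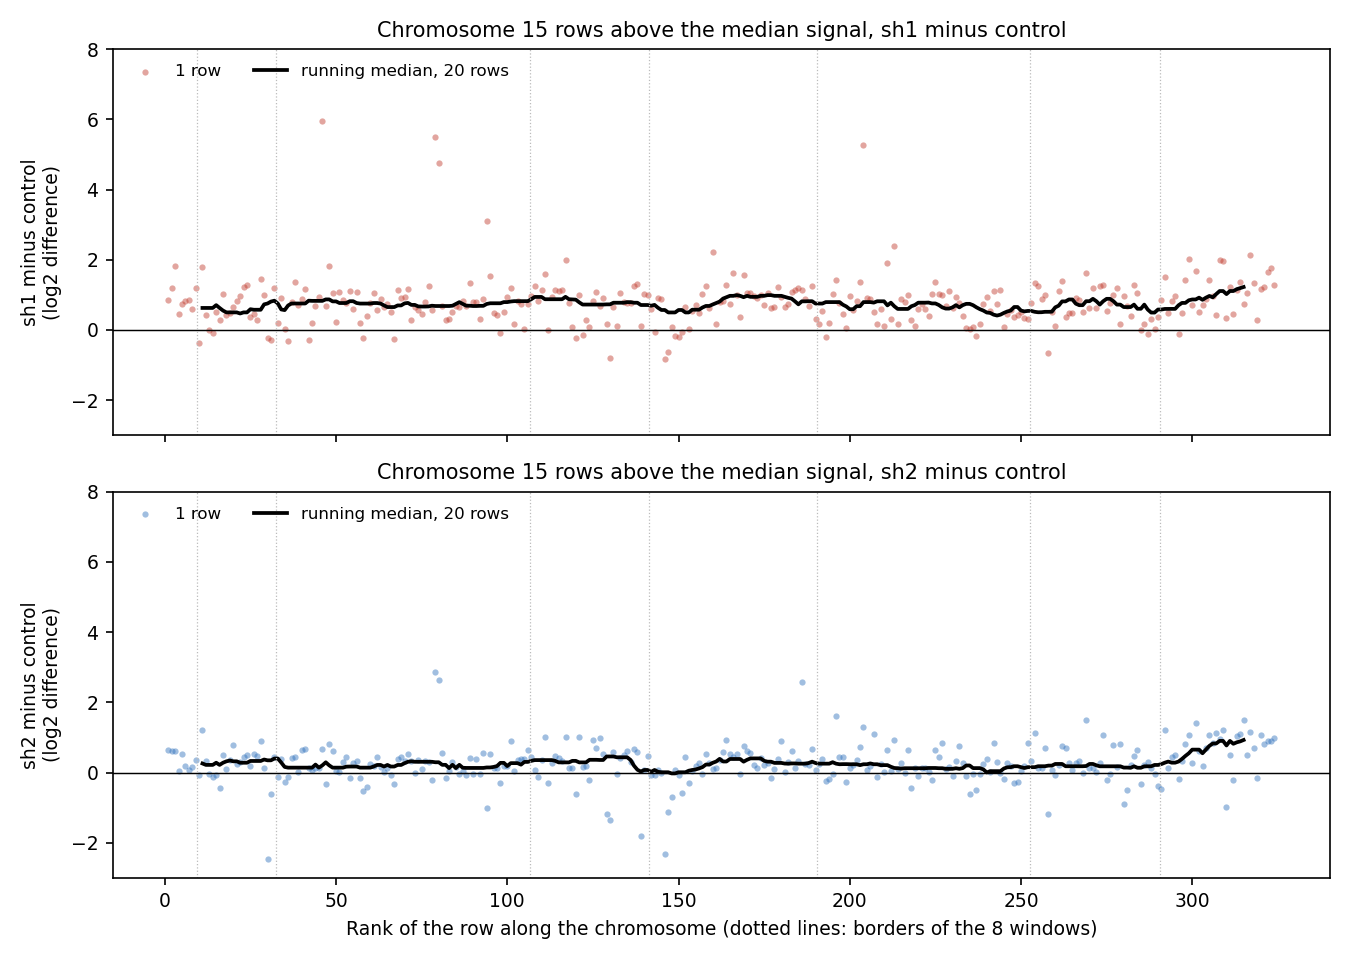
Log2 difference from control of the 324 placed rows above the median signal, by rank along the chromosome (horizontal axis), for sh1 (top) and sh2 (bottom). Points are single rows, the black line is the running median over 20 rows, and dotted lines are the borders of 8 windows. The sh1 line runs between 0.41 and 1.23, and the sh2 line between -0.03 and 0.93, both highest near the end.

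Windows of 10 Mb gave the same picture by place. In sh1 the window medians of rows above the median signal were 0.85 from HERC2P3 to TJP1 (9 rows), 0.49 from CHRFAM7A to EIF2AK4 (23 rows), 0.73 from SRP14 to ATP8B4 (74 rows) and 0.82 from SLC27A2 to BNIP2 (35 rows). They were 0.79 from FOXB1 to RPLP1 (49 rows), 0.60 from TLE3 to BCL2A1 (62 rows), 0.72 from ZFAND6 to ZNF710 (38 rows) and 1.11 from IDH2 to OR4F15 (34 rows). Each window was thus above 0.4. In sh2 the medians in the same order were 0.36, 0.31, 0.19, 0.35, 0.21, 0.14, 0.18 and 0.81.

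The last window had the highest median of the 8 in both lines. Of its 34 rows, 22 rose and 1 fell in sh2 (64.7% and 2.94%), against 13.6% and 12.9% of all rows above the median signal. Of the 290 rows of the other windows, whose median was 0.21, 67 rose and 15 fell. The window's median in the single arrays was 0.81, 0.84 and 0.73 in sh2 and 1.07, 1.15 and 1.02 in sh1, against -0.04, -0.04 and 0.11 in control. The direct comparison of the clones gave -0.44 there, with 14 rows lower and 2 higher (41.2% and 5.88%). That is near the -0.48 of all 362 rows of the chromosome above the median signal, of which 45.9% were lower and 1.1% higher. Over all chromosomes 8.64% of such rows were lower and 9.29% higher. Over the 36 rows from ARPIN to TARS3 the sh2 median was 0.76, against 0.21 over the 288 rows before them. These borders were set after the profile was seen, and the difference between the stretches was not tested.

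**Figure D4:**
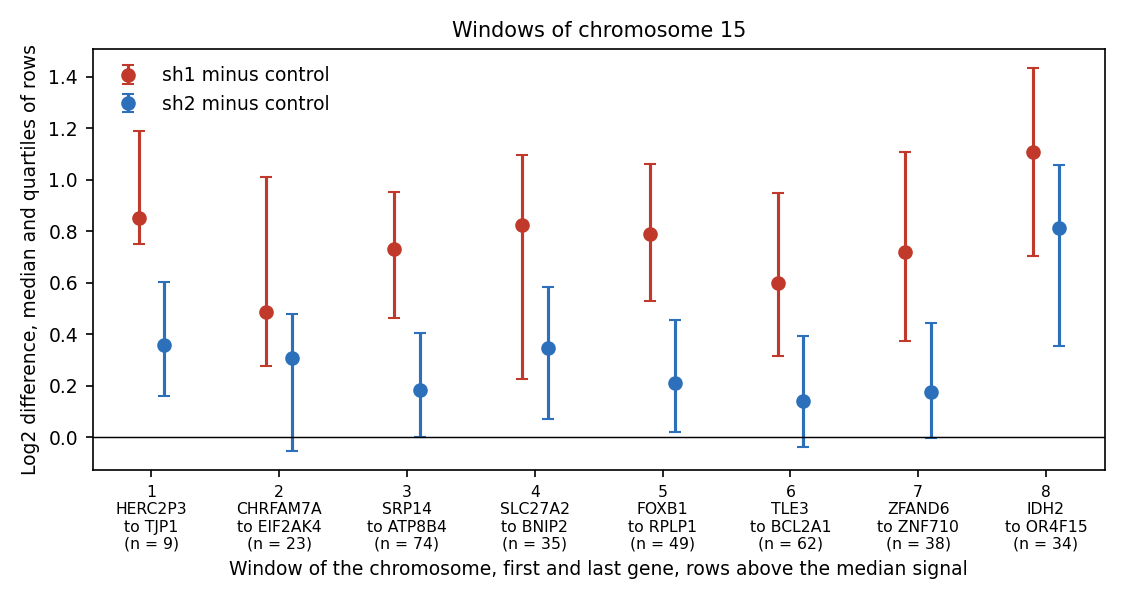
Median log2 difference from control in 8 windows of the chromosome (horizontal axis, with first and last gene and the number of rows above the median signal). Bars reach from the lower to the upper quartile of rows. The sh2 medians lie between 0.14 and 0.36 in the first 7 windows and at 0.81 in the last, and the sh1 medians between 0.49 and 1.11.

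The gene groups described next were read against the shares of rows called. In sh1 15.7% of all rows above the median signal rose, 3.8% of those at or under it, and 68.5% of the chromosome 15 rows above it. In sh2 these shares were 13.6%, 3.07% and 26.5%. A share near the last of these in a list made mostly of rows above the median is no result about the list, and no list was tested against the rest of the chromosome.

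In the first window 7 of the 9 rows above the median signal rose in sh1 and 0 of the 14 rows at or under it. NIPA1, a magnesium transporter, read 11.45, 11.22 and 11.56 in control, 13.24, 13.36 and 13.11 in sh1 and 12.09, 12.05 and 11.90 in sh2. All sh1 arrays lay above all sh2 arrays, and these above all control arrays, with differences from control of 1.83 (adjusted p = 3.04e-06) and 0.60 (adjusted p = 0.00996). The ubiquitin ligases UBE3A and HERC2 rose by 0.84 and 0.85 in sh1 (adjusted p = 0.000757 and 0.00153). Their sh2 differences were 0.18 and 0.07 (adjusted p = 0.407 and 0.808). CYFIP1, a regulator of actin assembly, rose by 0.75 in sh1 and 0.54 in sh2. Of 13 measured genes of the Prader-Willi and Angelman region, 5 were above the median signal. In sh1 4 of the 13 rose and 0 fell (30.8% higher, against 9.76% of all rows and 43.1% of those on chromosome 15). In sh2 2 rose and 0 fell (15.4%, against 8.33% and 16.5%). The 8 with a signal at or under the median, such as MAGEL2, NDN and OCA2, included no call in either line. HERC2P3, a pseudogene with near-identical relatives, read 0.86 higher in sh1, and its signal may hold theirs. TJP1, the tight junction protein ZO-1, was at 12.73, 12.90 and 12.62 in control and 14.02, 13.97 and 13.88 in sh1, a rise of 1.21. It was at 13.04, 13.21 and 13.08 in sh2, above the control in every array, but the difference of 0.36 had an adjusted p of 0.0751.

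All 12 measured genes of mitosis were above the median signal. In sh1 11 rose and 0 fell, with a median of 1.07, which is 91.7% of them against 15.7% of all rows above the median and 68.5% of those on the chromosome. In sh2 6 rose and 0 fell, with a median of 0.40, or 50.0% against 13.6% and 26.5%. PRC1, which bundles microtubules of the spindle midzone, read 12.69, 12.91 and 13.01 in control, 14.32, 14.21 and 14.35 in sh1 and 14.04, 13.82 and 13.92 in sh2. The groups did not overlap, and the rises were 1.42 and 1.06. KIF23, a kinesin of the same midzone, was higher in both lines, by 1.26 and 0.67, as was CEP152, which is needed for centriole duplication, by 1.21 and 0.90. CCNB2, a mitotic cyclin, rose by 1.31 in sh1. Its rise of 0.59 in sh2 (adjusted p = 0.0384) lost the call without any 1 of 6 single arrays, with an adjusted p of up to 0.135. KIF7, a regulator of Hedgehog signalling in cilia, was the member with no rise (sh1 difference 0.00, adjusted p = 0.992, and sh2 difference -0.32, adjusted p = 0.186).

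Of 12 genes listed under replication and DNA repair, 9 were above the median signal. In sh1 9 of the 12 rose and 0 fell, with a median of 0.94, and the share of 75% (9.76% of all rows) is near that of the chromosome 15 rows above the median. In sh2 3 rose and 0 fell, with a median of 0.32. The share of 25% is near the 26.5% of the chromosome 15 rows above the median. Of all rows 8.33% rose, and of all chromosome 15 rows 16.5%. RFX7, counted among the rises of both lines (0.92 and 0.54), is a transcription factor and not itself a repair protein. USP8, counted among those of sh1 (0.96), is a deubiquitinase of endosomes. BLM, the Bloom syndrome helicase, read 8.27, 8.42 and 8.5 in control, 10.56, 10.04 and 10.66 in sh1 and 9.83, 9.18 and 9.42 in sh2. The rise was 2.02 in sh1 and 1.08 in sh2, and sh2 was below sh1 by 0.94 (adjusted p = 0.00891). FANCI of the Fanconi anaemia pathway rose by 1.27 in sh1 and TP53BP1, a double-strand break response protein, by 1.26. In sh2 they differed by 0.48 (adjusted p = 0.0193, and up to 0.0796 without control array 1 or sh2 array 2) and by 0.30 (adjusted p = 0.173). POLG, the mitochondrial DNA polymerase, rose by 1.07 in sh1. It differed by 0.65 in sh2 with an adjusted p of 0.0958.

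The largest rises of the chromosome were of single genes far above the regional shift. SPINT1, a membrane-bound inhibitor of the proteases that activate hepatocyte growth factor, read 5.70, 5.96 and 6.30 in control and 11.76, 11.95 and 12.14 in sh1. In sh2 it read 6.71, 6.82 and 6.4, just above the control arrays. The rise in sh1 was 5.96 (SE 0.18, adjusted p = 2.31e-09). That in sh2 was 0.66 (adjusted p = 0.0273), a call lost without any 1 of control arrays 1 and 2 or sh2 arrays 1 and 2 (adjusted p up to 0.114). NEO1, the receptor neogenin, read 6.25, 6.11 and 6.25 in control, 11.33, 11.76 and 11.31 in sh1 and 7.60, 7.42 and 7.48 in sh2, rises of 5.26 and 1.30. In the same window SEMA7A, a membrane-anchored semaphorin, rose by 1.92 in sh1, and its difference of 0.64 in sh2 had an adjusted p of 0.0743. NRG4, an ErbB receptor ligand with signal under the median, read 3.67, 3.46 and 4.33 in control, 6.63, 7.42 and 6.98 in sh1 and 6.16, 6.07 and 6.07 in sh2. It rose by 3.19 and 2.28. RORA, a nuclear receptor, also lay under the median. It read 3.65, 3.70 and 3.38 in control, 7.0, 6.2 and 5.83 in sh1 and 4.19, 3.62 and 3.82 in sh2, and its rise of 2.77 in sh1 stood beside 0.30 in sh2 (adjusted p = 0.516). RBPMS2, an RNA-binding protein, rose by 2.21 in sh1 and differed by 0.11 in sh2 (adjusted p = 0.777).

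The creatine kinase copies rose in both lines. CKMT1B read 4.80, 4.83 and 5.07 in control, 10.45, 10.36 and 10.40 in sh1 and 7.97, 8.25 and 7.06 in sh2, and CKMT1A 6.90, 6.74 and 7.22, then 11.82, 11.62 and 11.70, then 9.74, 9.65 and 9.42. The copies share long stretches of sequence, as the upstream run printed above shows, and the rows may each hold signal of both. The rises were 5.50 and 4.76 in sh1 and 2.86 and 2.65 in sh2. GATM, which makes the precursor of creatine, went opposite ways: 7.07, 7.27 and 7.13 in control, 10.18, 10.40 and 10.25 in sh1 and 5.93, 6.04 and 6.43 in sh2. It rose by 3.12 in sh1 and fell by 1.02 in sh2 (adjusted p = 0.000664).

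**Figure D5:**
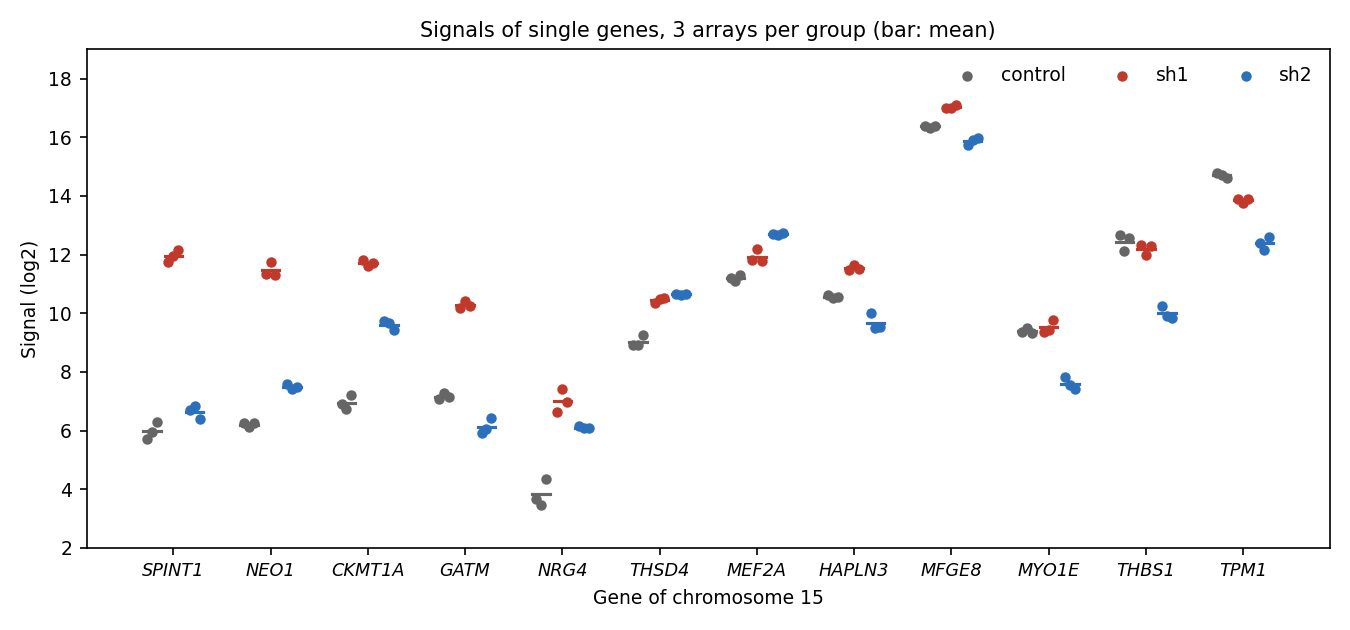
Signals on the log2 scale (vertical axis) of 12 chromosome 15 genes in the 9 arrays, with 1 point per array and a bar at the group mean. SPINT1, NEO1 and GATM are highest in the sh1 arrays, THSD4 is higher in both knockdown groups, MEF2A is highest in sh2, and MYO1E, THBS1 and TPM1 are lowest in sh2.

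Across mitochondrial and intermediary metabolism, 15 of 20 measured genes rose and 1 fell in sh1 (median 0.75), and 6 rose and 2 fell in sh2 (median 0.18). Of these genes 19 were above the median signal, and the shares of 75% and 30.0% are near the 68.5% and 26.5% of the chromosome there (15.7% and 13.6% over all chromosomes). FAH, the last enzyme of tyrosine breakdown, rose by 1.33 and 1.13, and ETFA, an electron carrier of fatty acid oxidation, by 0.76 and 0.77. IDH2, the mitochondrial NADP-dependent isocitrate dehydrogenase, rose by 0.86 in sh1 and differed by -0.46 in sh2 (adjusted p = 0.0546), and sh2 was below sh1 by 1.32 (adjusted p = 0.000116). IVD, of leucine breakdown, rose by 1.36 in sh1 and differed by 0.44 in sh2 (adjusted p = 0.233). COX5A, a cytochrome oxidase subunit, rose by 0.60 in sh1 and stood at -0.09 in sh2 (adjusted p = 0.69). LACTB, a mitochondrial serine protease-like protein, fell in both, by 0.62 and 1.11. PKM, the glycolytic pyruvate kinase, read 15.79, 15.67 and 15.55 in control, 15.86, 15.59 and 15.71 in sh1 and 15.55, 15.45 and 15.21 in sh2, differences of 0.05 and -0.27 that did not pass the test (adjusted p = 0.863 and 0.243).

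Signalling genes rose in 13 of 23 cases in sh1 with 0 falls (median 0.64) and in 4 of 23 in sh2 with 1 fall (median 0.25). These shares of 56.5% and 17.4% come from a list with 14 members above the median signal. Of all rows 9.76% and 8.33% rose, and of the 638 chromosome 15 rows 43.1% and 16.5%. IGF1R, the insulin-like growth factor receptor, read 11.31, 11.31 and 11.69 in control, 12.53, 12.72 and 12.71 in sh1 and 11.98, 11.93 and 11.88 in sh2. Its rises were 1.22 (adjusted p = 7.96e-05) and 0.49 (adjusted p = 0.0302, and up to 0.117 without any 1 of control arrays 1 and 2 or the sh2 arrays). SPRED1, an inhibitor of Ras signalling, rose by 1.47 and 0.90. TRPM7, a channel joined to a kinase, rose by 1.25 in sh1 and was at 0.06 in sh2 (adjusted p = 0.842). MAPK6, an atypical MAP kinase, rose by 1.12 in sh1 and 0.43 in sh2, the latter call being lost in 6 of 15 alternative fits (adjusted p up to 0.102). SMAD3, the TGF-beta effector, rose by 0.65 in sh1 and was at 0.10 in sh2 (adjusted p = 0.645).

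Among epithelial proteases, inhibitors and traffic genes 11 of 20 rose and 0 fell in sh1 (median 0.62), and 4 rose and 0 fell in sh2 (median 0.19). The list had 12 members above the median signal, and its shares of 55% and 20% stood against 9.76% and 8.33% of all rows. Of the 638 chromosome 15 rows 43.1% and 16.5% rose. ALDH1A3, which makes retinoic acid, read 11.12, 11.04 and 11.00 in control, 12.31, 12.63 and 12.24 in sh1 and 11.87, 11.65 and 11.76 in sh2, rises of 1.34 and 0.71 without overlap between groups. RAB11A, a GTPase of recycling endosomes, rose by 1.06 and 0.55. Of genes of ribosome, splicing and translation 10 of 14 rose and 0 fell in sh1 (median 0.69), and 2 rose and 1 fell in sh2 (median 0.18). Here 13 were above the median signal, and the 71.4% in sh1 is near the 68.5% of the chromosome (15.7% over all chromosomes). The 14.3% in sh2 is near the 13.6% of all such rows and below the 26.5% of those on the chromosome. RSL24D1, a ribosome assembly factor, was up by 1.01 and 1.00 in the respective lines, and SNUPN, the import adaptor of spliceosomal particles, by 0.99 and 0.84. EIF3J, of the initiation factor eIF3, rose by 0.79 in sh1 and stood at -0.05 in sh2 (adjusted p = 0.876). Of 13 genes listed as immune 5 rose and 1 fell in sh1 (median 0.32), and 3 rose and 1 fell in sh2 (median 0.22). With 9 of the 13 above the median signal, the shares risen were 38.5% and 23.1%. Of all rows 9.76% and 8.33% rose, and of the 638 chromosome 15 rows 43.1% and 16.5%. LEO1, one of the 5, is a subunit of a transcription elongation complex and not an immune gene. It rose by 1.15 in sh1 and 0.48 in sh2, the latter with an adjusted p of up to 0.0746 without control array 1, control array 3 or sh2 array 1. BCL2A1, an inhibitor of apoptosis, rose by 0.84 in sh2 and differed by 0.33 in sh1 (adjusted p = 0.247). B2M, the light chain of MHC class I, differed by 0.32 and -0.05 (adjusted p = 0.11 and 0.856).

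Matrix, adhesion and actin genes had medians near 0 in both lines. Of 21 measured, 5 rose and 3 fell in sh1 with a median of -0.04, and 2 rose and 6 fell in sh2 with a median of -0.06. PARP6, counted among the rises of sh1 (0.96), is an ADP-ribosylating enzyme and not a matrix, adhesion or actin gene. Only 9 of the 21 were above the median signal, and the chromosome 15 rows under it had medians of 0.11 and 0.03. In sh1 23.8% rose and 14.3% fell, against 9.76% and 9.0% of all rows. In sh2 9.52% rose and 28.6% fell, against 8.33% and 7.98%. Over the 638 chromosome 15 rows, rises made up 43.1% in sh1 and 16.5% in sh2, while falls made up 1.88% and 4.55%. By share, the list thus held fewer rises and more falls than its chromosome in each line, a difference that was not tested. THBS1, the matrix protein thrombospondin 1, read 12.66, 12.11 and 12.56 in control, 12.33, 12 and 12.28 in sh1 and 10.24, 9.90 and 9.84 in sh2. The sh1 arrays overlapped the control arrays, with a difference of -0.24 (adjusted p = 0.417), while all sh2 arrays lay below both and THBS1 fell by 2.45 in sh2 (SE 0.18, adjusted p = 2.59e-06). TPM1, the actin-binding tropomyosin 1, read 14.77, 14.70 and 14.62 in control, 13.91, 13.76 and 13.90 in sh1 and 12.41, 12.14 and 12.59 in sh2. It fell in both lines, by 0.84 and 2.32 (SE 0.14 each, adjusted p = 0.00124 and 5.87e-07). MYO1E, a membrane-linked myosin, read 9.37, 9.48 and 9.34 in control, 9.35, 9.44 and 9.76 in sh1 and 7.81, 7.56 and 7.40 in sh2, and fell by 1.81 in sh2. ITGA11, a collagen-binding integrin chain, fell by 0.94 and 1.16, and TLN2, a talin that links integrins to actin, by 0.80 and 1.01. The call of TLN2 in sh1 was lost without any 1 of 4 single arrays (adjusted p up to 0.0918). MYO5C, a myosin of vesicle transport in epithelia, went the other way, with rises of 1.99 and 1.02. LOXL1, which crosslinks elastic fibres, rose by 1.10 in sh2 and differed by 0.50 in sh1 (adjusted p = 0.0511).

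The rows that fell were few. Of the 12 that fell in sh1, 10 had a symbol, and 9 of these 10 lay in the adjoining windows from SLC27A2 to BNIP2 and from FOXB1 to RPLP1, which hold 126 of the 520 placed rows. Of the 29 that fell in sh2, 23 had a symbol and 13 of these lay there. The places were counted after the values were seen. The count of 12 was 6 without control array 1 and 7 without control array 2, control array 3 or sh1 array 1. PAQR5, a membrane progestin receptor, read 6.66, 7.0 and 7.53 in control, 4.0, 5.1 and 4.71 in sh1 and 7.61, 7.49 and 7.04 in sh2, a fall of 2.46 in sh1 that sh2 did not show (0.32, adjusted p = 0.537). MNS1, a protein of sperm flagella and cilia, fell by 0.81 and 1.35. TMOD2, a cap of actin filaments, fell by 0.94 and 1.32, and its call in sh1 was lost without any 1 of 6 single arrays (adjusted p up to 0.13). FAM81A fell by 1.63 in sh2 and was at -0.24 in sh1 (adjusted p = 0.613). Its sh2 arrays read 3.27, 3.79 and 3.13, under 4.21, the lower quartile of the row means of the table. PAQR5, TMOD2 and FAM81A had a signal under the median, as did ITGA11 and TLN2 among the falls described above. The largest fall of the chromosome was of a row with no single gene symbol, which read 9.06, 8.86 and 8.66 in control, 7.35, 7.44 and 7.54 in sh1 and 5.21, 5.13 and 4.82 in sh2.

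A few rows were higher in sh2 than in sh1, against the trend of the chromosome. CORO2B, an actin-binding coronin, read 5.14, 5.86 and 5.79 in control, 6.75, 6.48 and 6.97 in sh1 and 8.55, 8.26 and 7.69 in sh2. It rose by 1.14 and 2.57, and sh2 was above sh1 by 1.43 (adjusted p = 0.00259). MEF2A, a transcription factor of muscle and other tissues, read 11.20, 11.09 and 11.31 in control, 11.82, 12.20 and 11.78 in sh1 and 12.71, 12.67 and 12.74 in sh2, rises of 0.73 and 1.51. SLCO3A1, an organic anion transporter, rose by 1.13 in sh2 and differed by 0.43 in sh1 (adjusted p = 0.0686). THSD4, a protein of extracellular microfibrils, was up by 1.43 in the sh1 arrays and by 1.62 in those of sh2, and HDGFL3, a relative of hepatoma-derived growth factor, by 1.62 and 1.49. For these last 2 the difference between the clones was 0.18 and -0.13 (adjusted p = 0.463 and 0.768). ASB7, a substrate receptor of a ubiquitin ligase near the end of the chromosome, rose by 2.13 and 1.15. It was called lower in sh2 than in sh1 and so went with the trend of the chromosome.

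Rows without a single symbol were counted in the same way. Of the 38 above the median 19 rose and 1 fell in sh1 (median 0.56), or 50.0% and 2.63% against 15.7% and 14.3% of all such rows. In sh2 7 rose and 4 fell (median 0.23), or 18.4% and 10.5% against 13.6% and 12.9%. Of the 80 at or under it 8 rose and 1 fell in sh1 (median 0.11), or 10% and 1.25% against 3.8% and 3.7%, and in sh2 2 rose and 2 fell (median 0.04), or 2.5% each against 3.07% and 3.04%. The named rows nearest to the dividing value lay on both sides of it. Their differences are given as a description, with no test. For RPP25 and ZSCAN2, just above, they were 0.75 and 0.62 in sh1 and 0.13 for each in sh2. For PGBD4 and TICRR, just below, they were 0.54 and 0.66 in sh1 and 0.48 and -0.21 in sh2.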

How the data were processed

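The 9 arrays of biotin-labelled total RNA (100 ng each) came from AsPC-1 cells. The table holds log2 signals as deposited by the authors, and its array medians lie between 6.57 and 6.65. The submitters' processing notes name Transcriptome Analysis Console. No normalization, genome build or version is given in the sources used here. Signals were taken without further scaling, and the number of arrays limits the precision. A linear model with 3 groups was fitted over all 21448 rows with limma 3.58.1 in R 4.3.3. P-values were adjusted by Benjamini-Hochberg over all rows, and a call needed an adjusted p under 0.05. The script was tested on simulated data. Row symbols came from the platform annotation, and the order of rows from RefSeq GRCh38.p14, since the identifiers do not run along the chromosome. The rule for named genes took the rows with the largest changes overall and by window, members of 9 gene lists (148 of 169 listed genes had a row), and the rows nearest the median. The members and lists were chosen with earlier results of these data known. Genes printed outside that rule (HAPLN3, FAH, ETFA, LACTB, IDH2, COX5A, KIF7, SMAD3, RFX7, USP8, PARP6, COL1A1 and a few list members named without a call) were chosen after their values were seen. Deviations of same-number arrays of different groups correlated weakly (r from -0.0358 to 0.180). Arrays numbered 1 gave 0.086 (control with sh1), 0.180 (control with sh2) and 0.12 (sh1 with sh2). The other pairs lay between -0.0358 and 0.050. The replicate number was left out of the main model and used as a block in an alternative fit. Alternatives changed scaling, filter, prior, arrays, threshold, split and running median.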

Additional observations from a re-analysis of the deposited data

Results flagged for a closer look

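Several results of chromosome 15 differed between the knockdown clones when the clones were compared directly (limma, adjusted p under 0.05). In sh2 minus sh1, 5 rows were higher and 181 lower, or 0.784% and 28.4% against 5.73% and 5.57% of all rows. A few rows were called higher than control in one clone and lower in the other, both against the same control arrays. The share of such rows over the whole table was not counted. GATM, of creatine synthesis, was at 3.12 in sh1 and -1.02 in sh2, a difference of -4.14 (adjusted p = 2.57e-08). HAPLN3, which links hyaluronan to proteoglycans, was at 0.98 in sh1 and -0.89 in sh2, a difference of -1.86 (adjusted p = 9.02e-06). MFGE8, the neighbouring gene for lactadherin, read 16.40, 16.32 and 16.40 in control, 17.01, 17.01 and 17.11 in sh1 and 15.73, 15.90 and 15.96 in sh2, a difference of -1.18 (adjusted p = 4.78e-05). An unnamed row was at 0.39 in sh1 (adjusted p = 0.0498) and -0.75 in sh2, a difference of -1.14. Another unnamed row was at 0.70 in sh1 and -0.93 in sh2, a difference of -1.63.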

How the results depend on the processing

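Under quantile normalization, centring, the filter on dim rows, another prior and fits of the compared groups alone, the counts of calls stayed within 1.5 times their values. With a change of at least 1 on the log2 scale added, 119 were higher and 2 lower in sh1. There were 27 higher and 14 lower in sh2, and 2 higher and 41 lower in sh2 minus sh1. By size of change alone, 550 of all 21448 rows were at or above 1 in sh1 and 656 at or below -1. These numbers were 440 and 530 in sh2, and 439 and 321 in sh2 minus sh1. At an adjusted p under 0.01, 5 fell in sh1, 64 rose in sh2, and 3 were higher and 116 lower in sh2 minus sh1. Shares of all rows at that threshold are not given here. Leaving out each array in turn gave 241 to 281 rows higher and 6 to 13 lower in sh1, 74 to 112 and 24 to 30 in sh2, and 4 to 7 higher and 145 to 173 lower in sh2 minus sh1. The medians over rows above the median signal then ranged from 0.71 to 0.77 in sh1, from 0.23 to 0.26 in sh2 and from -0.49 to -0.46 in sh2 minus sh1. The last was -0.50 both when arrays were centred on rows outside chromosome 15 and, at -0.502, when rows above the upper quartile were taken. A running median over 40 rows ranged from 0.53 to 0.95 (0.945) in sh1, from 0.10 (0.098, above 0 where 20 rows gave -0.03) to 0.65 in sh2, and from -0.62 to -0.35 in sh2 minus sh1. A window of more rows spans a longer stretch. With a replicate block, 279 rows were higher and 11 lower in sh1, 103 and 31 in sh2, and 6 were higher and 179 lower in sh2 minus sh1, with medians of 0.748, 0.25 and -0.48. Of 9 correlations of deviations between same-numbered arrays the range was -0.0358 to 0.180. Of 2970 values of named genes under the alternatives 2836 kept their call, 102 lost it, 32 gained it and 0 turned direction while called. Of 360 window medians 337 moved by less than the spread between arrays and 23 by more. Each group is 1 clone with 3 arrays.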
